A study of Mus musculus with 5 samples.

Results

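Endothelial cells line blood vessels, and 10 genes that mark them or carry the angiopoietin signal between vessel cells were followed in tumours of Th-Cre:MYC mice and in normal pancreas. The genes were taken by symbol from the 55573 gene rows of the RNA sequencing tables, and all 10 were found once each: Pecam1, Cdh5, Kdr, Flt1, Tek, Tie1, Egfl7, Plvap, Vwf and Angpt2. The tumours (n = 3) came from animals of the genotype Th-Cre:MYC, bred from a TH-Cre line and a CAG-STOPflox/flox-MYC line, in which Cre driven by the tyrosine hydroxylase gene's promoter removes a stop in front of MYC. The controls (n = 2) were normal pancreas of wild-type littermates, so the groups differ in tissue as well as in genotype. By its title the series is about a model of neuroblastoma, whereas the design text speaks of pancreas tumours. The normal pancreas was perfused with RNAlater, an RNase-inhibiting solution, before it was removed. The labels do not state perfusion for the tumours, and they give no age, sex or batch. The library names open with numbers that are close within each group and far apart between the groups, without a statement of their meaning. Any difference in handling between the groups cannot be told apart from tissue. The number 86 stands in the titles of both tumour 1 and tumour 2, and 114 in that of tumour 3, without a statement of which animal each came from.

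Vessel growth runs through receptor kinases that sit on endothelial cells. Kdr and Flt1 are receptors for VEGF ligands: Kdr passes on most of the growth signal, and Flt1 binds the ligand tightly and in part acts as a trap. Tek, also called Tie2, is the receptor for the angiopoietins. Its ligand Angpt1, made largely by cells around the vessel, keeps vessels quiet, whereas Angpt2 is stored and released by the endothelium and can oppose Angpt1 during remodelling. Tie1 is a partner receptor of Tek with no high-affinity angiopoietin ligand of its own. Pecam1 and Cdh5 are junction proteins, Egfl7 is a secreted protein of growing endothelium, Plvap builds the diaphragms of fenestrated and transport capillaries, and Vwf is the clotting glycoprotein stored with Angpt2.

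The libraries held 6611967 to 51669489 estimated counts, with the larger totals in normal pancreas. All 14 listed acinar enzyme genes were lower in the tumours on every scale and took a large share of the normal libraries, so the scaling decides what a fold change means here. The main comparison used TMM, which scales libraries on the bulk of shared genes and gave factors of 0.271 and 0.263 in normal pancreas against 2.50, 2.57 and 2.19 in the tumours. On that scale the median of all 16810 tested genes was 0.38 on the log2 scale (tumour over normal), against 3.55 with total counts alone and 0.51 with upper-quartile scaling. Levels below are CPM, which are counts relative to the TMM-scaled size, or TPM. TPM divides counts by the estimated length and is relative to the library's sum of such values, without TMM scaling. It is thus not the total-count scale. Mouse Myc, the mouse counterpart of the transgene, stood at 0.718, 1.46 and 1.11 CPM in tumours 1 to 3 and at 31.7 and 29.6 CPM in normal pancreas. The labels do not say whether reads of the transgene map to it.

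Counts of all 10 genes were present in every library, and the defining markers of the endothelium were thus detected in both tissues. Summed over the 10 genes the level was 165 and 220 CPM in normal pancreas 1 and 2 against 221, 206 and 245 CPM in tumours 1, 2 and 3. The sums of the groups overlapped. By TPM, the order of the genes within a library changed between the tissues. In both normal libraries Plvap ranked 1 of 10 and Pecam1 ranked 2, with Egfl7 at rank 3. In all 3 tumours Egfl7 ranked 1 (19.4, 17.1 and 17.1 TPM), Plvap ranked 2 (13.5, 14.7 and 14.0 TPM) and Pecam1 ranked 3 (9.08, 8.61 and 6.69 TPM). Angpt2 moved from ranks 10 and 9 in normal pancreas to ranks 5, 5 and 7 in the tumours, and Tek from rank 8 in both normal libraries to rank 10 in each tumour. Cdh5, Kdr and Flt1 lay close to one another in the middle of the order, at 1.42, 1.54 and 1.36 TPM in normal pancreas 2 and 4.83, 6.43 and 4.26 TPM in tumour 3, and Cdh5 and Kdr exchanged places between libraries of the same tissue.

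**Figure D1:**
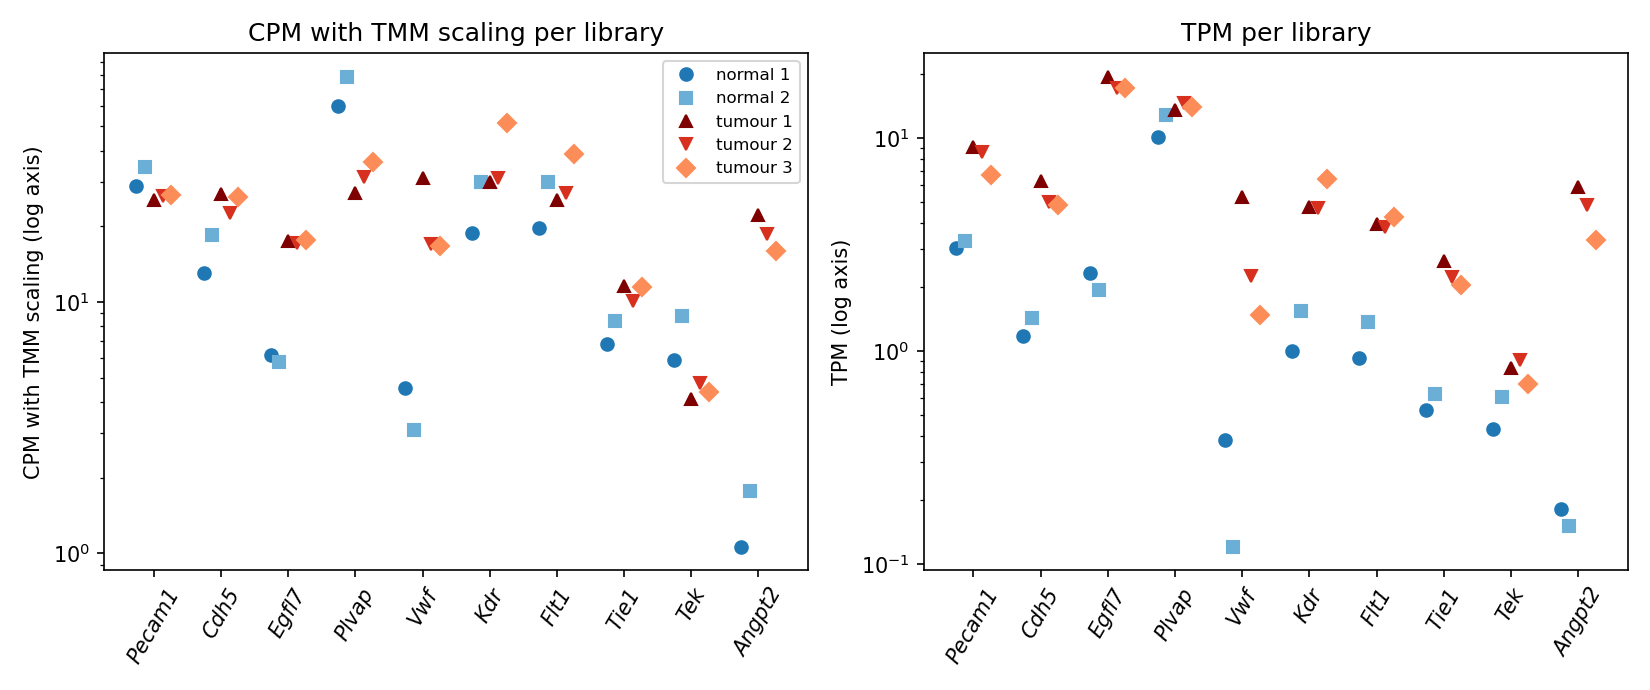
Level of each of the 10 genes in every library on log axes, in CPM with TMM scaling on the left and in TPM on the right, with 1 point for each of 2 normal pancreas and 3 tumour libraries. With TMM, Angpt2, Vwf and Egfl7 have all tumours above both normal libraries, Plvap has all tumours below them and Kdr and Flt1 overlap. By TPM, which has no TMM scaling, all tumours are above both normal libraries for every gene.

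With TMM scaling, 5 of the 10 genes rose in the tumours (Angpt2, Vwf, Egfl7, Cdh5 and Tie1) and 2 fell (Plvap and Tek), although with total counts alone all 10 were higher. Pecam1, Kdr and Flt1 did not pass the threshold, an edgeR adjusted p of 0.05 over all genes tested. Among all tested genes 39.2% were called higher and 27.8% lower in this comparison, so a count of 5 and 2 among 10 genes is near the background. Without regard to the test, all tumours lay above both normal libraries for 5 genes (Cdh5, Tie1, Egfl7, Vwf and Angpt2), against 46.8% of all genes. For 3 genes (Pecam1, Tek and Plvap) all tumours lay below both, against 34.2% of all genes. With total counts alone 93.3% of all genes were called higher, so 10 of 10 on that scale is near the background. The median of the 10 genes was 0.57 with TMM scaling, beside 0.38 for all genes. In bulk tissue, fewer cells of a type and less RNA per cell cannot be told apart.

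A second comparison put the 10 genes at equal level of other endothelial genes. Library sizes were set by the median ratio over 31 of 33 pan-endothelial genes that are not among the 10 and that had counts in every library. This reference was lower in normal pancreas 1 than in the other libraries, at 0.715 of its TMM-scaled size, against 0.938 in normal pancreas 2 and 1.08, 1.21 and 1.15 in the tumours (each relative to the geometric mean of the 5). On this scale Angpt2, Vwf and Egfl7 were higher in the tumours and Plvap, Tek and Pecam1 were lower. Of all genes, 29.9% were called higher and 35.2% lower, with a median of -0.11 for all genes and 0.12 for the 10. Cdh5, Kdr, Flt1 and Tie1 did not pass. Relative to the median of all genes the log2 fold changes hardly moved between the scalings: Angpt2 stood 3.36 above that median with TMM, Plvap 1.52 below it, and the total-count fit gave 6.92 for Angpt2 and 2.03 for Plvap around a median of 3.55. With mural cell genes as the reference in place of endothelial genes, only Angpt2 stayed higher and 8 of the 10 were lower, since the mural genes themselves were far higher in the tumours, as given further on.

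**Figure D2:**
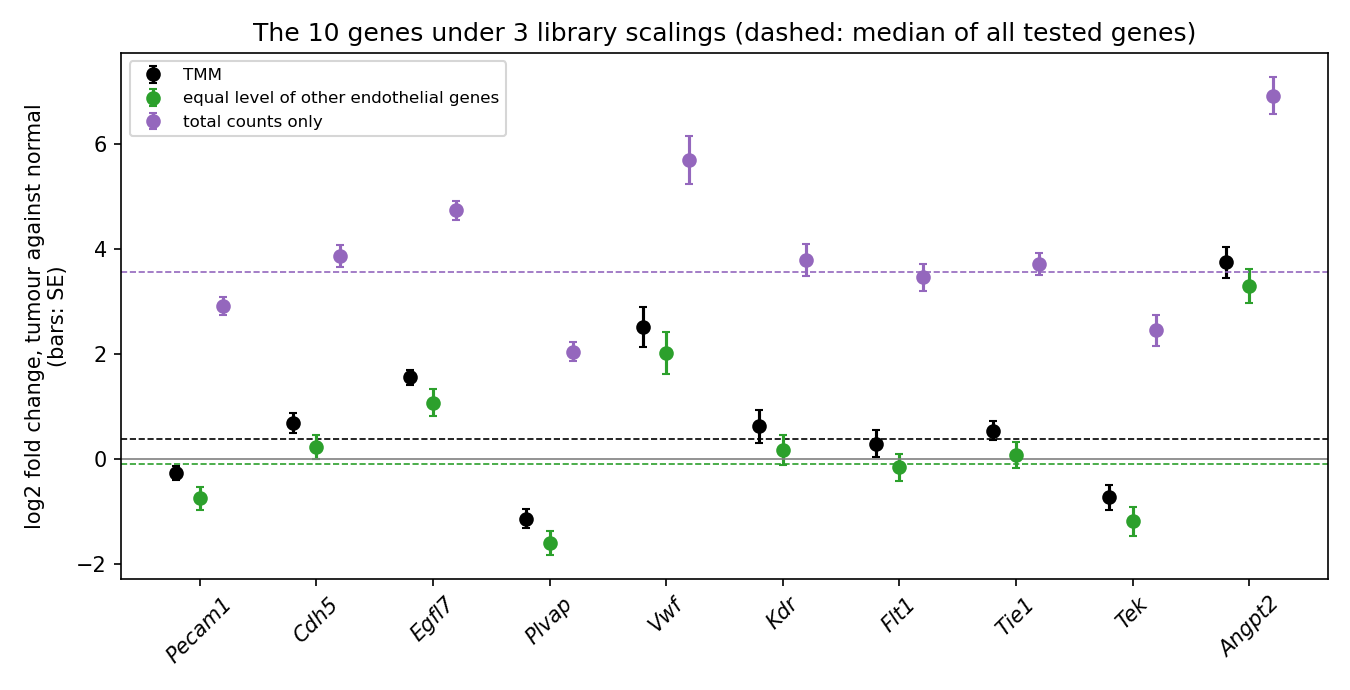
Log2 fold change (tumour over normal) of the 10 genes under 3 library scalings, with bars for the SE and dashed lines for the median of all tested genes on each. Angpt2, Vwf and Egfl7 lie above the median and Plvap, Tek and Pecam1 below it on all 3, while against 0 the sign of Plvap, Tek and Pecam1 turns positive with total counts alone, as that of Flt1 is negative only at equal endothelial level.

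The angiopoietin ligands changed in opposite directions. Angpt2 (chr8:18690263-18741562, - strand) had 14 and 24 counts in normal pancreas 1 and 2 against 832, 599 and 231 counts in tumours 1, 2 and 3. As levels these were 1.06 and 1.77 CPM against 22.1, 18.6 and 16.0 CPM. Every tumour was far above both normal libraries, and the tumours differed little among themselves. Angpt2 rose by 3.74 in log2 units (SE 0.29, edgeR adjusted p = 0.000107) with TMM, the largest change of the 10 genes, and by 3.29 (SE 0.33, adjusted p = 8.15e-06) at equal level of other endothelial genes. It was higher under every scaling run, the mural reference included. The gene lies inside the Mcph1 locus on the opposite strand but shares 0 exonic bases with it.

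Angpt1 (chr15:42424723-42676977, - strand), the ligand that activates Tek, had 240 and 276 counts in normal pancreas against 18, 20 and 15 counts in the tumours. Its level was 18.2 and 20.3 CPM in normal pancreas against 0.478, 0.619 and 1.04 CPM in the tumours. Normal pancreas was thus high for Angpt1 and low for Angpt2, and each tumour was the reverse. Angpt1 fell by 4.85 in log2 units (SE 0.30, edgeR adjusted p = 5.36e-05), and it was also lower with total counts alone (-1.64, adjusted p = 0.00422). Exons of Angpt1 share 737 bases with an antisense gene, Gm17473. The labels do not state whether the libraries keep strand, so reads of the pair cannot be told apart.

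Both ligands are measured in the same library, so their ratio needs no scaling factor between libraries, although the value added to low TPM and the length estimates enter it. The effective length of Angpt2 was 1760 bases in normal pancreas 1 and 3401 bases in normal pancreas 2, and that of Angpt1 was 2997 bases in tumour 1 and 4072 bases in tumour 2. The TPM ratio of Angpt2 to Angpt1, with 0.1 added to each value, was 0.188 and 0.156 in normal pancreas and 24.8, 21.5 and 12.2 in tumours 1, 2 and 3. On the log2 scale the mean was -2.55 ± 0.19 over the normal libraries (SD, n = 2) and 4.22 ± 0.54 over the tumours (SD, n = 3), a difference of 6.77. An exact two-sided permutation test gave p = 0.1, the smallest p that 10 splits of 3 against 2 libraries allow, and 0.15 after adjustment over 3 ratios. The groups did not overlap. The size of the difference depends on the value added, and was 3.35 with 1 added to each TPM and 8.53 from estimated counts with 0.5 added.

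The receptors of these ligands moved far less than the ligands. Tek (chr4:94739289-94874976, + strand) had 78 and 119 counts in normal pancreas against 154, 153 and 63 in the tumours. Its level was 5.90 and 8.76 CPM in normal pancreas against 4.09, 4.74 and 4.36 CPM in the tumours, with every tumour below both normal libraries. Tek fell by 0.74 on the log2 scale with TMM (SE 0.24, edgeR adjusted p = 0.0305), but had a log2 fold change of 2.45 with total counts alone. The call is fragile with TMM: the edgeR adjusted p was 0.284 without normal pancreas 2, 0.0634 without tumour 1 and 0.0772 without tumour 3, and DESeq2 gave 0.0581. At equal level of other endothelial genes Tek was lower by more (-1.20, SE 0.28, adjusted p = 0.00304).

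Tie1 (chr4:118471191-118490061, - strand) had 90 and 114 counts in normal pancreas against 434, 325 and 165 counts in the tumours, or 6.81 and 8.40 CPM against 11.5, 10.1 and 11.4 CPM. Every tumour was above both normal libraries, by a smaller margin than for Angpt2. Tie1 rose by 0.53 (SE 0.18, edgeR adjusted p = 0.0326) with TMM, but the value at equal level of other endothelial genes was 0.07 (SE 0.25, adjusted p = 0.831) and it was -2.25 against the mural reference. The TMM call was lost without normal pancreas 1 (adjusted p = 0.208), normal pancreas 2 (0.0594), tumour 1 (0.0608) or tumour 3 (0.0672). The TPM ratio of Angpt2 to Tek was 0.528 and 0.352 in normal pancreas against 6.41, 4.89 and 4.28 in the tumours, again without overlap. Its log2 difference of 3.57 had an exact permutation p of 0.1, or 0.15 adjusted over the 3 ratios.

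**Figure D3:**
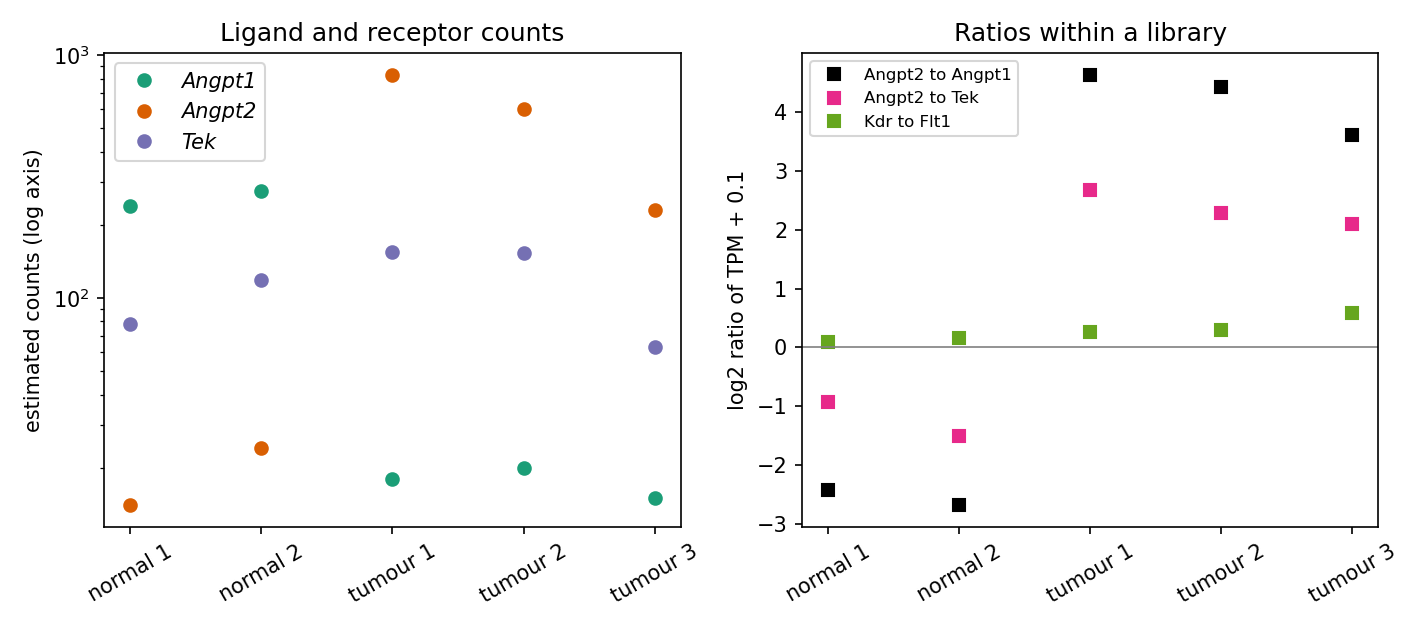
Estimated counts of Angpt1, Angpt2 and Tek in each library on a log axis (left) and the within-library log2 ratios of TPM + 0.1 (right), with 1 point per library for 2 normal pancreas and 3 tumour libraries. Angpt1 and Angpt2 exchange places around Tek between normal pancreas and tumour, the ratio of Angpt2 to Angpt1 goes from below 0 in both normal libraries to 3.61 or more in each tumour, and that of Kdr to Flt1 stays between 0.10 and 0.58.

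Of the 12 other genes of the angiopoietin pathway, all tested, 3 rose with TMM (Itgb1, Svep1 and Angptl4). A further 3 fell (Angpt1, Angptl1 and Angptl2) and 6 did not pass, beside 39.2% higher and 27.8% lower over all genes. The median of these 12 was -0.23, beside 0.38 for all genes. At equal level of other endothelial genes 0 were higher and 5 lower by edgeR, beside 29.9% higher and 35.2% lower over all genes. Svep1 (edgeR adjusted p = 0.0633) and Angptl4 (0.063) came nearest to a call as higher on that scale. As higher, 2 passed there with tumours 1 and 2 summed, and 1 when any single tumour was left out. With TMM only 1 of the 3 rises passed without tumour 2. Shares over all genes were not computed for these alternative fits. The TMM median of the 12 was -0.18 without normal pancreas 1 and -0.31 without normal pancreas 2, beside 0.39 and 0.40 for all genes. Angptl1, an angiopoietin-like secreted protein, fell by 5.71 (SE 0.45, adjusted p = 0.000115), from 4.61 and 5.67 CPM to 0.133, 0.0619 and 0.0693 CPM. Ptprb, the endothelial phosphatase that removes phosphate from Tek, had 21.4 and 29.98 CPM in normal pancreas against 33.0, 33.6 and 43.5 CPM in the tumours and did not pass (0.51, SE 0.21, adjusted p = 0.0683). Angpt4, a further angiopoietin, and Foxo1, a transcription factor held in check by Tek signalling, did not pass either (-0.53 and -0.35). Svep1, a matrix protein that binds Tie1, rose by 1.12 (SE 0.40, adjusted p = 0.0431), with 5.67 and 14.7 CPM in normal pancreas against 18.6, 20.4 and 27.8 CPM in the tumours.

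Of the VEGF receptors, Kdr and Flt1 showed no difference that passed the test on either main scale. Kdr (chr5:75932827-75978458, - strand) had 18.8 and 29.98 CPM in normal pancreas against 29.9, 31.1 and 51.6 CPM in the tumours. Tumour 3 was the highest library for Kdr, and tumour 1 was level with normal pancreas 2. The log2 fold change was 0.62 (SE 0.32, edgeR adjusted p = 0.125) with TMM and 0.17 (SE 0.29, adjusted p = 0.627) at equal level of other endothelial genes. Flt1 (chr5:147561604-147726011, - strand) had 19.7 and 30.1 CPM in normal pancreas against 25.4, 27.2 and 38.7 CPM in the tumours, with the same library highest. Its log2 fold change was 0.29 (SE 0.26, adjusted p = 0.359) with TMM and -0.17 (SE 0.25, adjusted p = 0.574) at equal endothelial level. Normal pancreas 1 was the lowest library for both receptors. The TPM ratio of Kdr to Flt1, with 0.1 added to each value, was 1.07 and 1.12 in normal pancreas against 1.20, 1.22 and 1.498 in the tumours. Every tumour was above both normal libraries, but the log2 difference was 0.25 with an exact permutation p of 0.2.

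The start regions of the 4 receptors are shown because Tek and Tie1, partners in one complex, were called in opposite directions with TMM, and Kdr and Flt1 were not called. Each is 300 bases long from RefSeq (GRCm38.p6) and reaches from before the RefSeq start to just after it, written along the gene's strand from 5′ to 3′. For Tie1 most of the region lies inside the gene coordinates given above, which come from GENCODE. Capitals mark AGGAAG or its reverse complement CTTCCT, letters that contain the core recognised by ETS factors, a family that includes regulators of endothelial genes.
Tek promoter, chr4:94739039-94739338, + strand: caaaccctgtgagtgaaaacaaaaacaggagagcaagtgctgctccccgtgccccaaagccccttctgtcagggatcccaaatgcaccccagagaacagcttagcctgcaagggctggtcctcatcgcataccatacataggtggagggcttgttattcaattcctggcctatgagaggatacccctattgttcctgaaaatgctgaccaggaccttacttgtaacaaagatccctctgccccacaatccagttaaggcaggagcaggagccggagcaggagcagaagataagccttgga
Tie1 promoter, chr4:118489800-118490099, - strand: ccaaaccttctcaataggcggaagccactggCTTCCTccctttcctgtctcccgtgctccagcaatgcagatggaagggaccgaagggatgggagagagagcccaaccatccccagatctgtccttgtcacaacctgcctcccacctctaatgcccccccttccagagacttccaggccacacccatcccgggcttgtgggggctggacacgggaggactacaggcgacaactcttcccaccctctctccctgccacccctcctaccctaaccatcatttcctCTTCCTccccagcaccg
Kdr promoter, chr5:75978406-75978705, - strand: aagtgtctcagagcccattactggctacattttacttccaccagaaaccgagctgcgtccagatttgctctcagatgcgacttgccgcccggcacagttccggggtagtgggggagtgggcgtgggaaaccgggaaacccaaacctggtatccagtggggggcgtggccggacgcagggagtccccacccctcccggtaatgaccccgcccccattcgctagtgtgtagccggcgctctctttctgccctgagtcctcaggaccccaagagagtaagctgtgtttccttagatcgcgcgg
Flt1 promoter, chr5:147725962-147726261, - strand: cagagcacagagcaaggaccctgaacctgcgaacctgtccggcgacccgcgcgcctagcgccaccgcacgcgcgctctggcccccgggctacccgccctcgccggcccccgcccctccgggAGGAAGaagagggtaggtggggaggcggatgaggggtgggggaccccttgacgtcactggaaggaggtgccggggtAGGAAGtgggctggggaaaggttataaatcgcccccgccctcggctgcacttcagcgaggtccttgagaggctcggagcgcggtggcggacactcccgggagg
Tie1 and Flt1 hold 2 matches each, and Tek and Kdr hold 0. Only this longer string was searched. The shorter core within it, GGAA or TTCC, also occurs in the Tek and Kdr regions as printed, so they do not lack it. Of the 7 start regions of the 10 genes in the table, which belong to Tek, Tie1, Kdr, Flt1 and Egfl7 (3 starts), 4 hold a match, as do 35.4% of 32851 mouse start regions of this length and 11 of 20 from the other pan-endothelial genes. A match is a string of letters and not evidence of binding.

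Of the VEGF ligands and coreceptors 8 were tested: 4 rose with TMM (Vegfa, Vegfc, Flt4 and Nrp2), 2 fell (Vegfb and Nrp1), and Vegfd and Pgf did not pass. Over all genes 39.2% were higher and 27.8% lower. The list median was 0.70, beside 0.38 for all genes. It was 0.82 without normal pancreas 1 and 0.54 without normal pancreas 2, beside 0.39 and 0.40 for all genes. Vegfa, the main ligand of Kdr, had 39.6 and 48.3 CPM in normal pancreas against 85.7, 65.5 and 75.4 CPM in the tumours, a rise of 0.78 (SE 0.18, adjusted p = 0.00819). Vegfb, which binds Flt1 and not Kdr, fell by 3.01 (SE 0.25, adjusted p = 0.000133), from 23.4 and 24.7 CPM to 3.75, 2.97 and 2.01 CPM, although with total counts alone its value was 0.17. Nrp2, a coreceptor used mainly with Vegfc and Flt4 and also present on neural cells, rose by 3.86 (SE 0.48, adjusted p = 0.000678), from 2.27 and 4.86 CPM to 69.3, 31.7 and 54.6 CPM. Nrp1, the coreceptor of Kdr, fell by 0.86 (SE 0.18, adjusted p = 0.00552), a direction that turned positive with total counts alone (2.32) and with TPM.

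Egfl7 (chr2:26580014-26593120, + strand) had 81 and 78 counts in normal pancreas against 657, 553 and 255 counts in the tumours. Its level was 6.12 and 5.75 CPM in normal pancreas against 17.5, 17.1 and 17.7 CPM in the tumours, so the tumours were nearly equal to one another and all above both normal libraries. Egfl7 rose by 1.55 (SE 0.14, edgeR adjusted p = 0.00021) with TMM and by 1.06 (SE 0.26, adjusted p = 0.00398) at equal endothelial level, while against the mural reference it was -1.25. Exons of Egfl7 share 264 bases with Gm20532 on the same strand and 64 with Agpat2 on the other, so part of its reads could be split between genes by the authors' counting. The gene also hosts the endothelial microRNA miR-126, whose mature form (RefSeq, GRCm38.p6, chr2:26591402-26591423, + strand) is shown with its seed, bases 2 to 8, in capitals because its host rose.
mmu-miR-126a-3p: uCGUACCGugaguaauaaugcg
The rows for Mir126a and Mir126b held 0 counts in all 5 libraries, so the microRNA itself was not measured here.

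Vwf (chr6:125546774-125686679, + strand) had 60 and 42 counts in normal pancreas against 1175, 547 and 241 counts in the tumours. Its level was 4.54 and 3.09 CPM in normal pancreas against 31.2, 16.9 and 16.7 CPM in the tumours. Tumour 1 was highest, and the lowest tumour was well above the higher normal library. Vwf rose by 2.51 (SE 0.38, edgeR adjusted p = 0.00148) with TMM and by 2.01 (SE 0.41, adjusted p = 0.0013) at equal endothelial level, although it was -0.30 against the mural reference. Without normal pancreas 2 the equal-endothelial call was lost (adjusted p = 0.0641). By TPM the level was 0.38 and 0.12 in normal pancreas against 5.28, 2.24 and 1.48 in the tumours. The effective length that the authors' files give for Vwf ran from 3681 bases in normal pancreas 1 to 7925 bases in tumour 3, so its TPM also carries length estimates that differ between libraries.

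Vwf is also made by megakaryocytes and carried by platelets, and Pecam1 is present on platelets and leukocytes. Of 10 listed platelet genes 4 were tested, and 6 were at 0 in both normal libraries. Ppbp, a platelet chemokine, rose with TMM and Gp5, a platelet receptor subunit, fell, although Gp5 was 1.08 with total counts alone. The platelet list hung on single normal libraries: its median was 0.65 with TMM, 3.61 without normal pancreas 1 and -0.04 without normal pancreas 2. The summed level of the 10 platelet genes was 4.92 and 3.39 CPM in normal pancreas against 4.01, 4.58 and 3.81 CPM in the tumours, with overlap between the groups. Red cell genes moved with the tumours: all 6 tested of 7 rose with TMM, beside 39.2% of all genes. Their summed level was 30.02 and 13.1 CPM in normal pancreas against 246, 594 and 200 CPM in the tumours. The part of blood content in the results for Vwf and Pecam1 was not tested. Leukocyte genes summed to 213 and 107 CPM in normal pancreas against 145, 250 and 127 CPM in the tumours, and of 13 only Ptprc was called with TMM by edgeR, as higher.

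Plvap (chr8:71497765-71511752, - strand) was the most abundant of the 10 genes in normal pancreas by TPM (10.1 and 12.8). Its level was 60.3 and 78.8 CPM in normal pancreas against 27.1, 31.4 and 35.9 CPM in the tumours, with every tumour far below both normal libraries. Plvap fell by 1.15 (SE 0.18, edgeR adjusted p = 0.00201) with TMM and by 1.62 (SE 0.23, adjusted p = 0.000112) at equal endothelial level, but its value was 2.03 with total counts alone. By TPM, which has no TMM scaling and is not the total-count scale, the tumours were slightly higher at 13.5, 14.7 and 14.0. Plvap thus had the largest fall among the 10 genes where libraries were brought to a common level of shared or endothelial genes.

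Pecam1 (chr11:106654217-106750628, - strand) had 28.8 and 34.5 CPM in normal pancreas against 25.4, 26.3 and 26.7 CPM in the tumours. Every tumour was below both normal libraries, by little. The log2 fold change was -0.28 (SE 0.14, edgeR adjusted p = 0.117) with TMM and 2.91 with total counts alone. At equal endothelial level the levels were 40.3 and 36.8 CPM against 23.6, 21.8 and 23.2 CPM, and Pecam1 passed as lower (-0.75, SE 0.22, adjusted p = 0.0102), a call lost when the reference was 7 endothelial transcription factors (adjusted p = 0.0523). Cdh5 (chr8:104101625-104144511, + strand), the other junction protein, had 13.1 and 18.4 CPM in normal pancreas against 26.9, 22.7 and 26.3 CPM in the tumours, with every tumour above both normal libraries. Cdh5 rose by 0.68 (SE 0.19, adjusted p = 0.0183) with TMM, and the call was lost without normal pancreas 1 (adjusted p = 0.138). At equal endothelial level its value was 0.23 (SE 0.23, adjusted p = 0.408), and it was -2.09 against the mural reference. The pair of junction markers thus gave TMM values of opposite sign, of which 1 passed the test.

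The 33 other pan-endothelial genes gave the level against which the 10 can be read. With TMM 10 rose, 2 fell and 21 did not pass, beside 39.2% higher and 27.8% lower over all genes. Their median was 0.50, beside 0.38 for all genes. It was 0.29 without normal pancreas 1 and 0.79 without normal pancreas 2, beside 0.39 and 0.40 for all genes. Cd93, an endothelial surface protein of growing vessels, rose by 2.36 (SE 0.17, adjusted p = 8.32e-05), and Sox7, an endothelial transcription factor, fell by 2.28 (SE 0.28, adjusted p = 0.000602) while its value was 0.91 with total counts alone. Summed over the list the level was 202 and 239 CPM in normal pancreas against 277, 273 and 292 CPM in the tumours. Every tumour was thus above both normal libraries, while the sums of the 10 genes overlapped. Single genes weigh heavily on both sums. Plvap, among the 10, had 60.3 and 78.8 CPM in normal pancreas against 27.1, 31.4 and 35.9 CPM in the tumours. Cd93, in this list, had 8.2 and 6.6 CPM against 39, 36 and 39 CPM. The sums therefore do not show that the 2 sets of genes differ.

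Of 13 tip and stalk cell genes, which mark sprouting vessels, 9 rose, 2 fell and 2 did not pass with TMM, beside 39.2% higher and 27.8% lower over all genes. Their median was 1.37, beside 0.38 for all genes. The shares over all genes at equal endothelial level were 29.9% higher and 35.2% lower. At equal endothelial level 8 were higher and 2 lower. The list median on that scale was 0.93, and 0.81 without normal pancreas 2, beside -0.11 and -0.33 for all genes. Esm1, a secreted proteoglycan of tip cells, rose by 2.06 (SE 0.23, adjusted p = 0.000466), and Cxcr4, a chemokine receptor of tip cells and of many other cells, rose by 3.997 (SE 0.32, adjusted p = 0.000126). Pdgfb, with which tip cells recruit pericytes, fell by 1.27 (SE 0.17, adjusted p = 0.000884), a direction that turned positive with total counts alone (1.91) and with TPM. Of 12 tested arterial, venous and lymphatic genes 5 rose and 2 fell, beside the same shares of all genes (median 0.76 beside 0.38), with 3 rises without normal pancreas 1 or without normal pancreas 2. The arterial ligand Efnb2 rose by 1.42 (SE 0.25, adjusted p = 0.00308) and its venous receptor Ephb4 fell by 1.91 (SE 0.14, adjusted p = 9.73e-05), though Ephb4 was 1.27 with total counts alone. Prox1, a lymphatic regulator also used by neural and endocrine cells, rose by 3.40 (SE 0.21, adjusted p = 5.53e-05).

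Mural cells, the pericytes and smooth muscle cells around vessels, had the highest median of the vessel lists. All 12 mural genes rose with TMM (median 2.71), beside 39.2% of all genes. All 12 also rose at equal endothelial level (median 2.26), beside 29.9% of all genes, and 11 did so there without tumour 1 or without tumour 2. Without normal pancreas 1 the mural median was 2.68 with TMM and 2.40 at equal endothelial level. Without normal pancreas 2 it was 3.03 and 2.29. The 12 mural genes summed to 44.5 and 58.0 CPM in normal pancreas against 359, 477 and 408 CPM in the tumours. Pdgfrb, the receptor for Pdgfb on pericytes, rose by 2.58 (SE 0.19, adjusted p = 9.60e-05), and the smooth muscle genes Acta2 and Myh11 rose by 3.45 and 2.91. Angpt1, a ligand made by such cells, was low in the same libraries in which these markers were high.

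**Figure D4:**
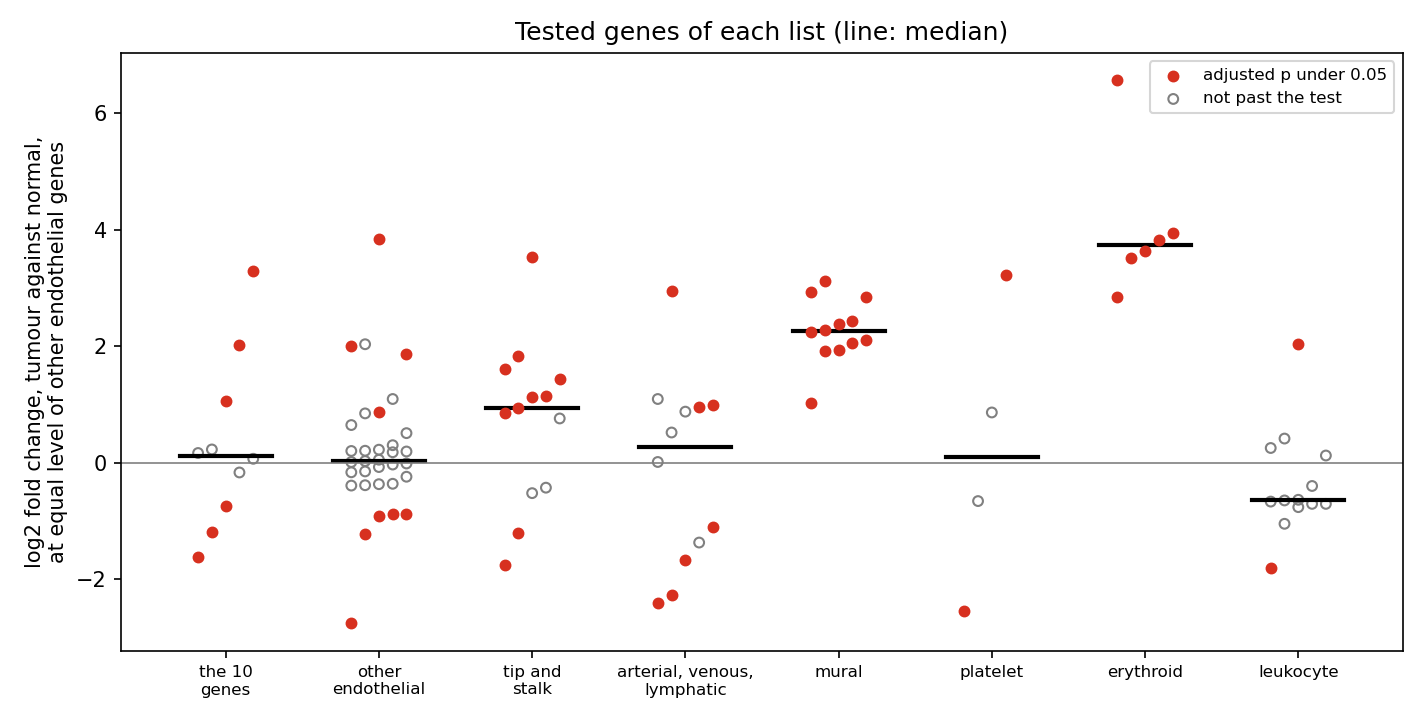
Log2 fold change (tumour over normal, at equal level of other endothelial genes) of every tested gene among the 10 genes and the other endothelial, tip and stalk, arterial, venous and lymphatic, mural, platelet, erythroid and leukocyte lists, with 1 point per gene, filled where the adjusted p passed, and a line at each list's median. On this scale the 10 genes spread from -1.62 to 3.29 around a median of 0.12 and all 12 mural genes lie above 0 with a median of 2.26, while with total counts alone every gene of these lists lies above 0.

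The 10 genes did not share one profile over the 5 libraries. Measured as the root mean square difference from their mean centred log2 profile, Cdh5 was nearest at 0.0714 and Tie1 next at 0.106, and Angpt2 was farthest at 1.30. Among 9824 other protein-coding genes the closest to the mean profile were Ncoa2 (0.039), Apc (0.0396), Specc1l (0.0398), Tnfaip1 (0.0428) and Ubr3 (0.0438), all higher in each tumour than in either normal library with TMM. Ncoa2, for example, had 18.0 and 21.3 CPM in normal pancreas against 31.97, 30.01 and 32.3 CPM in the tumours.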

How the data were processed

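RNA sequencing of mouse tissue gave 5 libraries, 3 of tumour and 2 of normal pancreas, grouped by the labelled tissue and genotype. The submitters' processing notes name Trim Galore 0.60, STAR 2.7, RSEM 1.31 and the builds mm10 and GRCm38. Settings, annotation release and strandedness: not given in the sources used here. RSEM's estimated counts, which need not be whole, and its TPM values were deposited by the authors as merged tables that equal the per-library tables (largest difference 0). The deposited per-library tables also hold each gene's effective length in bases, a value of another kind. A deposited FPKM table was not used. The 92 spike-in rows were at 0 and were left out.

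The rounded counts were tested in R 4.3.3 by edgeR 4.0.16 (quasi-likelihood test, TMM scaling, default filterByExpr, Benjamini-Hochberg adjustment over 16810 genes, threshold 0.05). The second fit took its scaling from 31 pan-endothelial genes. Each SE came from the fold change and its F statistic. Ratios used log2(TPM + 0.1) and two-sided exact permutation tests. DESeq2 1.42.0 and limma 3.58.1 on log2(TPM + 1) and log2(TPM + 0.1) were alternatives, as were other scalings, other reference genes, no filter, protein-coding genes only, and leaving out each library. The fits were also run on simulated counts that had the same mean profile in both groups apart from chosen genes. That run held no loss of acinar genes like the one here, so it cannot test the scaling. Fold changes on the log2(TPM + pseudocount) scale understate the change of low genes.

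The 10 genes and the lists were chosen with earlier results of these data known. Named genes were the 10, every measured VEGF and angiopoietin pathway gene, up to 4 genes with the smallest p in each other list, and the 5 genes most like the mean profile among those with a mean log2 CPM of at least 2, from log2(CPM + 0.5). No label says that libraries of a group came from separate animals, so p-values measure only the spread between these libraries, which may be technical. Coordinates are on GRCm38 from GENCODE M21, with which 55094 of 55573 gene identifiers agree, version included. Sequences are from RefSeq tables (GRCm38.p6), which held start regions for 5 of the 10 genes.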

Additional observations from a re-analysis of the deposited data

How the results depend on the processing

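The number of the 10 genes called higher was 5 with TMM and with DESeq2, upper-quartile scaling, no low-count filter, protein-coding genes only and tumours 1 and 2 summed, 10 with total counts only and 8 with limma on log2(TPM + 1) or log2(TPM + 0.1). The number called lower was 2, and 1 with DESeq2, upper-quartile scaling or no filter, and 0 with total counts only or limma on either TPM scale. The shares over all genes were not computed for limma. Of the 33 other endothelial genes 30 were higher with limma on log2(TPM + 1) and 31 on log2(TPM + 0.1). The 8 of 10 there thus cannot be read as particular to these genes. With TMM, leaving out each tumour in turn gave 4 to 5 of the 10 genes higher and 1 to 2 lower. The share of all genes called was not computed for fits that left out a library. The median of the 10 was 0.355 without normal pancreas 1 and 0.84 without normal pancreas 2, beside 0.39 and 0.40 for all genes. At equal level of other endothelial genes the numbers were 3 higher and 3 lower, with 1 and 8 against the mural reference. Leaving out each tumour gave 3 higher and 3 lower on the equal endothelial scale. The median of the 10 there was 0.076 without normal pancreas 1 and 0.105 without normal pancreas 2, beside 0.12 and -0.33 for all genes. Angpt2, Egfl7 and Plvap kept their calls in both fits when any single library was left out. The log2 difference of Angpt2 to Angpt1 ran from 6.56 to 7.07 without single libraries, that of Angpt2 to Tek from 3.28 to 3.86 and that of Kdr to Flt1 from 0.14 to 0.30. Over these fits the log2 value ran from -0.35 to 1.24 for Dok2, -0.27 to 0.079 for Itga5, -0.54 to 0.47 for Pf4 and -0.12 to 2.36 for Coro1a, and at equal endothelial level from -0.023 to 0.15 for Tie1 and -0.12 to 0.30 for Kdr. Signs turned for these log2 fold changes. With total counts only they were Pecam1 2.91, Tek 2.45, Plvap 2.03, Vegfb 0.17, Pgf 2.11, Nrp1 2.32, Angpt4 2.64, Angptl2 1.84, Angptl6 2.05, Foxo1 2.83, Itga5 3.06, Sox7 0.91, Pdgfb 1.91, Ephb4 1.27, Nr2f2 1.43, Dcn 0.95, Pdgfra 2.29, Gp5 1.08, Pf4 3.06, Itgb2 1.94 and Pdk1 2.14. With limma on log2(TPM + 1) they were Pecam1 1.13, Tek 0.26, Plvap 0.28, Pgf 0.18, Nrp1 0.46, Angpt4 0.14, Angptl2 0.10, Angptl6 0.10, Foxo1 0.56, Itga5 0.61, Pdgfb 0.12, Pdgfra 0.39, Pf4 1.06, Itgb2 0.059 and Pdk1 0.29. With limma on log2(TPM + 0.1) they were Pecam1 1.33, Tek 0.57, Plvap 0.30, Pgf 0.29, Nrp1 0.57, Angpt4 0.54, Angptl2 0.16, Angptl6 0.16, Foxo1 0.96, Itga5 1.26, Pdgfb 0.18, Pdgfra 0.85, Pf4 1.44, Itgb2 0.024 and Pdk1 0.35. With upper-quartile scaling they were Itga5 0.017 and Pf4 0.005. Without normal pancreas 1 the value was Pf4 0.47. Without normal pancreas 2 they were Dok2 -0.35 and Itga5 0.079. Without tumour 2 they were Dok2 -0.20 and Coro1a -0.12. Without tumour 3 it was Pf4 0.12. In the fit at equal endothelial level they were Cdh5 -2.09, Kdr -2.15, Tie1 -2.25, Egfl7 -1.25 and Vwf -0.30 with the mural reference, Tie1 -0.023 without normal pancreas 2, Tie1 -0.022 without tumour 1 and Kdr -0.12 without tumour 3. The median of all genes was 3.55 with total counts only and 0.51 with upper-quartile scaling, beside 0.38 with TMM. It was 0.62 with limma on log2(TPM + 1) and 1.40 with limma on log2(TPM + 0.1). The cause of the turned signs was not tested. No paired analysis was possible because the labels tie no tumour to a normal library. The 2 normal libraries and the 14 to 24 counts of Angpt2 in them limit the precision.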

Other observations

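Of 8 listed fibroblast genes 3 rose, 3 fell and 2 did not pass with TMM (median 0.35), near the 39.2% higher, 27.8% lower and median of 0.38 over all genes. The collagens Col1a1 and Col1a2 rose with TMM by 2.26 (SE 0.40, edgeR adjusted p = 0.00315) and 2.04 (SE 0.32, adjusted p = 0.0019), and Dcn, a matrix proteoglycan of resting fibroblasts, fell by 2.25 (SE 0.29, adjusted p = 0.000778), although Dcn was 0.95 with total counts alone. Of 11 tested hypoxia targets, a list that includes Vegfa, 6 rose and 2 fell with TMM, beside the same shares of all genes (median 0.78 beside 0.38). The median was 0.64 without normal pancreas 1 and 0.95 without normal pancreas 2, beside 0.39 and 0.40 for all genes. Kdm3a, a histone demethylase, rose by 1.36 (SE 0.23, adjusted p = 0.00231) and P4ha1, a collagen hydroxylase, rose by 1.08 (SE 0.21, adjusted p = 0.00414). Ndrg1, a stress-response gene that was abundant in normal pancreas, fell by 3.78 (SE 0.14, adjusted p = 2.02e-05), from 255 and 271 CPM to 19.7, 18.2 and 19.4 CPM, and was also lower with total counts alone (-0.60).

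Tumour 2 had the highest summed level of red cell genes, at 594 CPM against 246 and 200 CPM in tumours 1 and 3. Its leukocyte sum of 250 CPM was also the highest, but near the 213 CPM of normal pancreas 1. Its platelet sum of 4.58 CPM was below the 4.92 CPM of normal pancreas 1. Ptprc, the common leukocyte antigen, was at 39.0 CPM in tumour 2 and at 8.05 and 6.30 CPM in tumours 1 and 3, against 4.08 and 1.77 CPM in normal pancreas, and Hbb-bs, a beta globin, was at 293 CPM in tumour 2 and 126 and 95.4 CPM in the others. In CPM with TMM none of the 10 endothelial genes was highest of the 5 libraries in tumour 2, while by TPM Tek (0.91) and Plvap (14.7) were.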
